A study of Mus musculus with 9 samples.

Results

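This account concerns 10 genes: the TREM receptors Trem1, Trem2, Trem3, Treml2 and Treml4, the CD300 receptors Cd300a, Cd300lb, Cd300ld and Cd300lf, and Tyrobp, which encodes the adaptor DAP12. They were chosen by gene symbol from 19938 genes measured on Affymetrix mouse arrays, and all 10 had 1 probe set that names a single gene. The arrays fall into 3 groups of 3: JmjD2d-knockdown dendritic cells 4 h after LPS, wild-type dendritic cells 4 h after LPS, and wild-type dendritic cells left unstimulated. LPS (bacterial lipopolysaccharide, a ligand of Toll-like receptor 4) was given at 100 ng/ml. All cells were mouse bone marrow progenitors, grown with IL-3, IL-6 and SCF (20 ng/ml of each) and turned into dendritic cells over 8 days. For the first 4 days they had 4% supernatant of GM-CSF-secreting cells with SCF at 5 ng/ml, and for the last 4 days GM-CSF without SCF. The knockdown cells carried a retroviral hairpin (vector pSir-delta U6CHisD) against JmjD2d, the histone demethylase encoded by Kdm4d, and were selected in 2 mM histidinol. The wild-type cells were untransduced, so the hairpin cannot be told apart from infection and selection, and no array of unstimulated knockdown cells or of a control hairpin was analysed here.

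TREM and CD300 proteins are immunoglobulin-like receptors on the surface of myeloid cells. The activating ones have almost no signalling tail of their own: a charged residue in the membrane joins them to an adaptor such as DAP12, whose ITAM motif is phosphorylated by Src-family kinases and then docks the kinase Syk. The inhibitory ones carry ITIM motifs that recruit the phosphatases SHP-1, SHP-2 and SHIP-1. TREM1 is known as an amplifier of inflammatory responses of neutrophils and monocytes, whereas TREM2 binds lipids and apolipoproteins and restrains Toll-like receptor responses in mouse macrophages. The CD300 receptors bind lipids exposed on dying cells. In RefSeq order Trem1, Trem3, Treml4 and Treml2 are consecutive protein-coding genes on mouse chromosome 17, with Trem2 close by. The CD300 genes lie on chromosome 11 and Tyrobp on chromosome 7.

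RefSeq promoter windows (GRCm38.p6, 250 bases before to 50 after the gene's start) were given for 7 of the 10 genes, and Trem3, Treml2 and Tyrobp were not matched. The windows of 4 genes are shown because these genes had large differences with LPS: Trem1 and Treml4 were higher, and Cd300a and Cd300lb were lower. They are written 5′ to 3′ on the strand of the gene. Capitals mark 2 motifs searched on both strands, the core of the site of PU.1 (GAGGAA), a myeloid transcription factor, and a loose form of the NF-kB site (GGG and CC with 5 bases of any kind between them).
Trem1 (chr17:48232489-48232788, plus strand): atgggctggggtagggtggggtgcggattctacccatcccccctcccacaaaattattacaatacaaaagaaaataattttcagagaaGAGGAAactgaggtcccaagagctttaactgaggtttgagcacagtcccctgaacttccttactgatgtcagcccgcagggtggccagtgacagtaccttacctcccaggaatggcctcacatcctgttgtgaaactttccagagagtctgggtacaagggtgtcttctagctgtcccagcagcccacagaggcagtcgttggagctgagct
Treml4 (chr17:48264045-48264344, plus strand): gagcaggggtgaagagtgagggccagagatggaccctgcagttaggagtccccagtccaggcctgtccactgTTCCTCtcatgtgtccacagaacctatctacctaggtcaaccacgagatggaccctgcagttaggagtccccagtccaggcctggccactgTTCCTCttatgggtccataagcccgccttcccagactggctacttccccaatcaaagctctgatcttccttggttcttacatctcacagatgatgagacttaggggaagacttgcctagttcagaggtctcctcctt
Cd300a (chr11:114889791-114890090, plus strand): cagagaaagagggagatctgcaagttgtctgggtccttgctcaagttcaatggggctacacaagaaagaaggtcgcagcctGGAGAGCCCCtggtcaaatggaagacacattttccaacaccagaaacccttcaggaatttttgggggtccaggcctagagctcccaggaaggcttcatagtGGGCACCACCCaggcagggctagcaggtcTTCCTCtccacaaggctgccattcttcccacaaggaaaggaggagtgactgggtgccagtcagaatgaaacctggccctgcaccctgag
Cd300lb (chr11:114934322-114934621, minus strand): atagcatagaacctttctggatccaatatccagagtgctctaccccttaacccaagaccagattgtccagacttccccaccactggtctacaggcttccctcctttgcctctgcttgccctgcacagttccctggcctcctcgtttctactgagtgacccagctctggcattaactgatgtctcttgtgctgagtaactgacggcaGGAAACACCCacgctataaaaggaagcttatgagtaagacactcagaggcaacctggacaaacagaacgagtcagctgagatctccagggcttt
GAGGAA was present in 6 of the 7 members' windows, among them Trem1 (1 match), Treml4 (2) and Cd300a (1), and in 28.3% of all 32851 windows. The NF-kB form was present in 3 of 7, with 3 matches in Cd300a, 1 in Cd300lb and 1 in Cd300ld, and in 50.8% of all windows. In Cd300a a pair of the NF-kB matches on opposite strands overlap, and in Cd300ld the PU.1 and NF-kB matches overlap. A match is a description of letters and shows no binding.

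Values are log2 expression from RMA, the authors' background correction, normalization and summary per probe set, so 1 unit is a 2-fold difference. Levels of a gene are compared between groups, and between genes only as a place among all gene means. Differences come from limma with 1 mean per group, p-values are adjusted by Benjamini-Hochberg over 19938 genes, and a difference counts as a change, or as called, where the adjusted p is under 0.05. Because the arrays of the same replicate number deviated together, a fit with that number as a block, the paired fit, is given where it changes a call. Kdm4d, the target of the hairpin, read 7.43, 7.11 and 7.40 on knockdown arrays 1 to 3, against 7.79, 7.54 and 7.74 on the wild-type LPS arrays. The groups did not overlap, and the difference of -0.37 (SE 0.13) did not pass the test (limma adjusted p = 0.278). The cytokine genes Il6 and Il12b, known LPS targets, rose by 7.18 (SE 0.39) and 6.27 (SE 0.40) with LPS in wild-type cells. All 12 dendritic cell markers had a mean above 6.32, the 25th percentile of all gene means, Dpp4 only just (6.33), and without detection calls this does not show which cells were present.

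**Figure D1:**
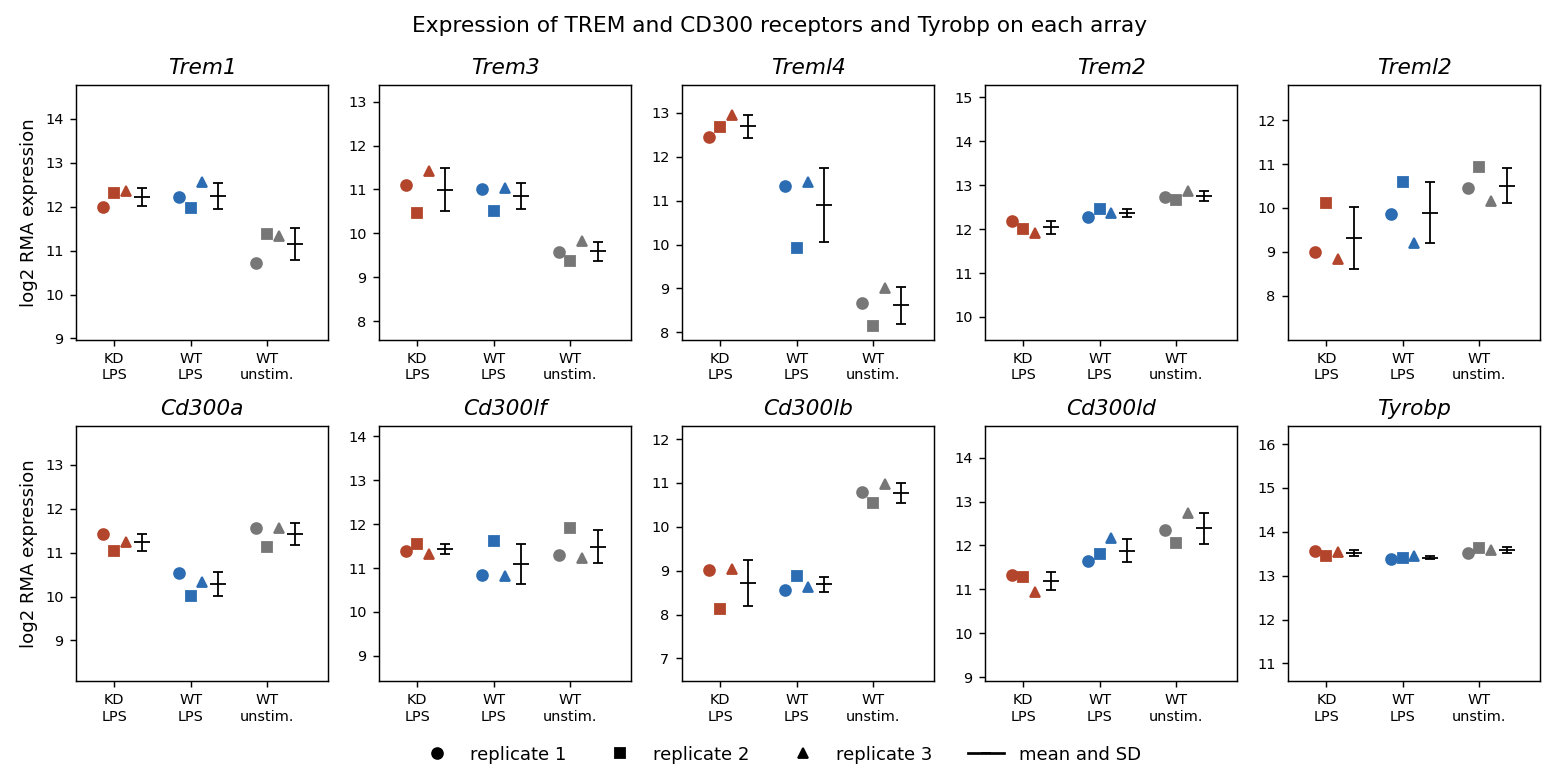
Log2 RMA expression (y axis, a span of equal height in every panel) of the 10 genes on each array, with knockdown LPS, wild-type LPS and wild-type unstimulated arrays from left to right, replicate numbers as symbols, and the mean with its SD (n = 3) as a bar. Treml4 steps up from right to left, with means of 12.69 in knockdown LPS cells, 10.90 in wild-type LPS cells and 8.61 in unstimulated cells, whereas Tyrobp stays between 13.39 and 13.64.

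The first comparison asks how the receptors responded to LPS in wild-type cells. The family split: Treml4, Trem3 and Trem1 rose, and Cd300lb, Cd300a and, by a smaller amount, Trem2 fell. Of the 10 genes 3 rose and 3 fell, against a background of 10.9% of all genes called in this comparison (3.99% higher and 6.86% lower). The median difference of the 10 was -0.40, beside 0.04 over all genes. In 7 of 10 the 3 values of each group did not overlap, which held for 29.3% of all genes. In every one of the 10 genes the LPS array differed from the unstimulated array of the same number in 1 direction in all 3 pairs. The share of all genes for which this held was not counted, so the count is not read as a result about the members.

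Treml4 is a receptor for dead cells that uses DAP12 and amplifies endosomal Toll-like receptor signalling in mouse macrophages. It read 11.34, 9.93 and 11.43 on wild-type LPS arrays 1 to 3, against 8.68, 8.15 and 9.01 on the unstimulated arrays. All LPS values were above all unstimulated values, with replicate 2 the lowest in both groups. The rise was 4.89-fold, a log2 difference of 2.29 (SE 0.39, limma adjusted p = 0.0097).

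Trem3 is an activating, DAP12-coupled receptor of mouse macrophages. It read 11.01, 10.52 and 11.04 after LPS, against 9.57, 9.38 and 9.82 without it. The groups were separated by more than the spread within either. Trem3 rose 2.41-fold (log2 difference 1.27, SE 0.25, limma adjusted p = 0.0159).

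Trem1 read 12.23, 11.97 and 12.55 after LPS, against 10.73, 11.39 and 11.34 in unstimulated cells. The groups did not overlap, and the pair numbered 2 had the smallest difference, 0.59, beside 1.51 and 1.22 in the other pairs. Trem1 rose 2.15-fold (1.10, SE 0.21, limma adjusted p = 0.0147). Trem1 is also a gene of neutrophils, and of 14 markers of neutrophils and granulocyte precursors 12 were higher after LPS, with 1, Csf3r, called. Of all 19938 genes 11899 were higher after LPS, and 3.99% were called higher. The mean log2 level of these markers was 9.0 to 10.50 on wild-type LPS arrays and 8.67 to 9.90 on unstimulated arrays. Their part in the difference of Trem1 was not tested, and in bulk RNA more cells of a type and more RNA per cell cannot be told apart.

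Trem2 read 12.28, 12.45 and 12.36 after LPS, against 12.73, 12.66 and 12.87 without it. All LPS values were lower, in a narrow range. The fall was small, to 76.1% of the unstimulated level (log2 difference -0.39, SE 0.09, limma adjusted p = 0.0289). Treml2, a TREM-like receptor known from B cells and myeloid cells that has no charged residue to join DAP12, read 9.87, 10.60 and 9.20 after LPS, against 10.44, 10.93 and 10.15. Its groups overlapped, with replicate 2 the highest in each, and each LPS array was below the unstimulated array of its number. The difference was -0.62 (SE 0.43, limma adjusted p = 0.385, and 0.0344 in the paired fit).

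Cd300lb, also called CLM-7, is an activating CD300 receptor that signals through DAP12. It read 8.55, 8.89 and 8.62 after LPS, against 10.79, 10.54 and 10.98 in unstimulated cells. The gap between the groups was several times the spread within them. Cd300lb fell to 23.6% of the unstimulated level (log2 difference -2.08, SE 0.24, limma adjusted p = 0.00201).

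Cd300a, an inhibitory receptor with ITIMs that binds phosphatidylserine and phosphatidylethanolamine, read 10.54, 10.01 and 10.32 after LPS, against 11.57, 11.13 and 11.55. The groups did not overlap, and the 3 same-number differences were close to each other, at -1.03, -1.12 and -1.23. Cd300a fell to 45.8% of the unstimulated level (-1.13, SE 0.17, limma adjusted p = 0.00598). Thus the activating Cd300lb and the inhibitory Cd300a both fell.

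The other CD300 members were lower without passing the test. Cd300ld, known as CLM-5, an activating receptor that couples to the Fc receptor gamma chain, read 11.65, 11.81 and 12.18 after LPS, against 12.36, 12.05 and 12.75. Its groups overlapped (-0.51, SE 0.20, 95% confidence interval -0.96 to -0.05, limma adjusted p = 0.154). Cd300lf, or CLM-1, an inhibitory receptor that is also the entry receptor of murine norovirus, read 10.84, 11.61 and 10.81, against 11.30, 11.92 and 11.24. Replicate 2 was the highest in both groups, which overlapped (-0.40, SE 0.25, interval -0.96 to 0.16, limma adjusted p = 0.332).

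Tyrobp, the shared adaptor, read 13.39, 13.41 and 13.45 after LPS, against 13.52, 13.64 and 13.59. The LPS values were all lower but by little, and the difference did not pass the test (-0.17, SE 0.06, interval -0.31 to -0.04, limma adjusted p = 0.105). Tyrobp had a mean of 13.51 over the arrays, above 99.6% of all gene means, and whether differences are compressed at such high signals was not tested.

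Single arrays decided some of these calls. Without wild-type LPS replicate 1 or replicate 3 only 3 of the 10 were called, Treml4, Cd300a and Cd300lb, with 5.33% and 4.47% of all genes called. Trem1 then had adjusted p = 0.0532 without replicate 1 and 0.0607 without replicate 3, and Trem3 0.0662 and 0.0708. Without unstimulated replicate 1 neither Trem2 (adjusted p = 0.081) nor Trem3 (0.0603) was called. Trem2 also lost its call without unstimulated replicate 3 (0.105), and without LPS replicate 1 (0.101) or 3 (0.0989). Its difference stayed between -0.44 and -0.34 in all 17 alternatives.

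**Figure D2:**
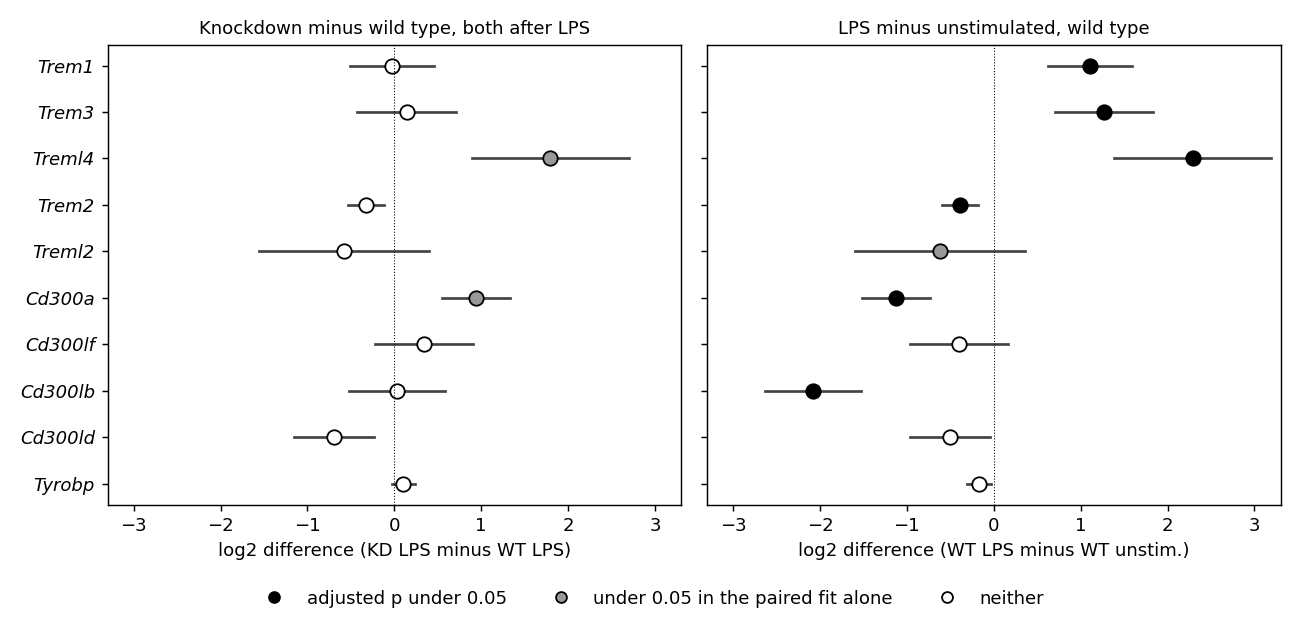
Log2 differences with 95% confidence intervals (x axes) of the 10 genes, for knockdown LPS minus wild-type LPS on the left and wild-type LPS minus unstimulated on the right. Black points passed the test, grey points passed it in the paired fit alone (Treml4 at 1.79 and Cd300a at 0.94 on the left, Treml2 at -0.62 on the right), and white points passed neither.

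The second comparison, named in the series title, asks how knockdown cells differed from wild-type cells when both had LPS. None of the 10 genes was called by limma with 1 mean per group, where 0.762% of all genes were (0.401% higher and 0.361% lower). Before adjustment, p was under 0.05 for 2 higher and 2 lower members, and for 7.32% and 5.79% of all genes in these directions. The paired fit called 2, Treml4 and Cd300a, both higher in knockdown cells, and 2.75% of all genes (1.51% higher). In 5 of 10 the groups did not overlap (3 above and 2 below), which held for 16.6% of all genes (8.21% above and 8.38% below). The median difference was 0.07, beside -0.03 over all genes.

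Treml4 read 12.45, 12.67 and 12.96 in knockdown cells, against 11.34, 9.93 and 11.43 in wild-type cells after LPS. All knockdown values were above all wild-type values, and the pair numbered 2 had the widest gap, where the wild-type array was low. The difference was 1.79 (SE 0.39, 95% confidence interval 0.89 to 2.7), 3.46-fold (limma adjusted p = 0.0875, and 0.0275 in the paired fit). Without wild-type LPS replicate 2 it was 1.31 (adjusted p = 0.0497).

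Cd300a read 11.42, 11.04 and 11.24 in knockdown cells, against 10.54, 10.01 and 10.32 in wild-type cells after LPS. The groups were apart, and the same-number differences were 0.88, 1.04 and 0.92. The level was 1.92-fold that of wild-type cells (log2 difference 0.94, SE 0.17, limma adjusted p = 0.0563, and 0.00533 in the paired fit). Over the 17 alternatives the adjusted p was 0.00533 to 0.173 and was past the threshold in 5, with a difference of 0.80 to 1.07.

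**Figure D3:**
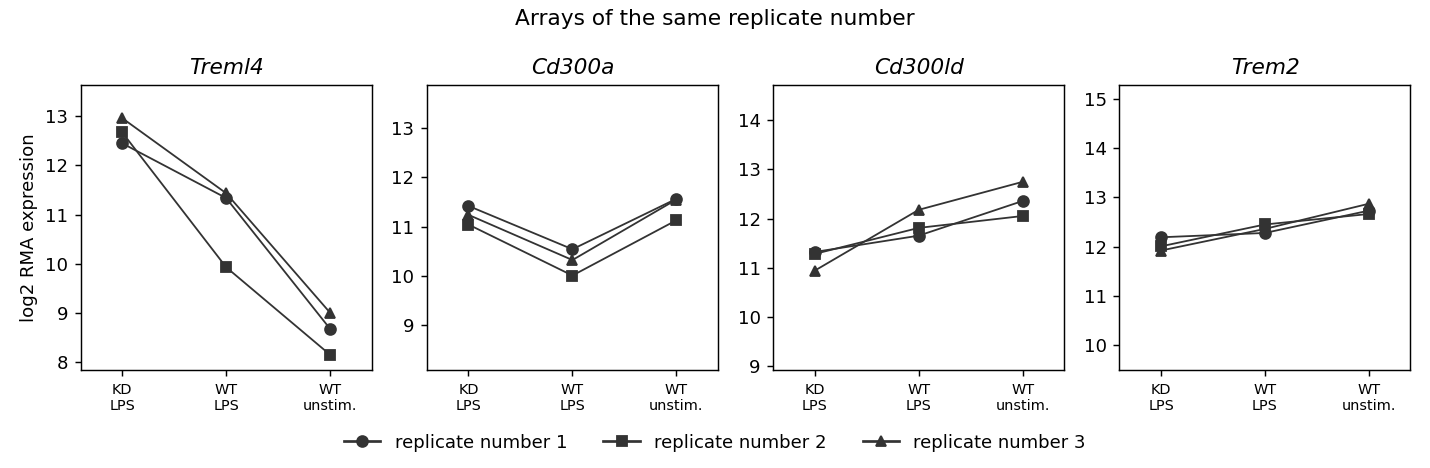
Log2 RMA expression (y axis) of Treml4, Cd300a, Cd300ld and Trem2, with lines joining the arrays of the same replicate number across knockdown LPS, wild-type LPS and wild-type unstimulated cells. Cd300a was higher in the knockdown LPS array than in the wild-type LPS array in 3 of 3 pairs, by 0.88 to 1.04, and Cd300ld and Trem2 were lower in 3 of 3.

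Cd300ld and Trem2 were lower in the knockdown cells without passing the test. Cd300ld read 11.32, 11.28 and 10.94 in knockdown cells, against 11.65, 11.81 and 12.18, with no overlap (-0.70, SE 0.20, interval -1.16 to -0.24, limma adjusted p = 0.167, paired 0.139). Trem2 read 12.19, 12.01 and 11.92, against 12.28, 12.45 and 12.36, also with no overlap (-0.32, SE 0.09, interval -0.53 to -0.12, limma adjusted p = 0.155, paired 0.169). In all 3 pairs of each gene the knockdown array was the lower one.

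Trem1 and Trem3, which LPS raised in wild-type cells, had no called difference. Trem1 read 11.99, 12.32 and 12.37 in knockdown cells, against 12.23, 11.97 and 12.55 (-0.03, SE 0.21, interval -0.51 to 0.45, limma adjusted p = 0.966). Trem3 read 11.11, 10.47 and 11.42, against 11.01, 10.52 and 11.04 (0.14, SE 0.25, interval -0.43 to 0.71, limma adjusted p = 0.846). The groups of each overlapped, and the pairs did not share a direction.

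Cd300lb, which had the largest fall of the 10 genes with LPS, read 9.01, 8.12 and 9.03 in knockdown cells, against 8.55, 8.89 and 8.62 in wild-type cells. The pair numbered 2 ran opposite to the others (0.04, SE 0.24, interval -0.52 to 0.59, limma adjusted p = 0.962). Cd300lf read 11.39, 11.56 and 11.33, against 10.84, 11.61 and 10.81, again with the pair numbered 2 apart (0.34, SE 0.25, interval -0.22 to 0.90, limma adjusted p = 0.601). Treml2 read 9.0, 10.11 and 8.83, against 9.87, 10.60 and 9.20, lower in 3 of 3 pairs with overlapping groups (-0.58, SE 0.43, limma adjusted p = 0.617, paired 0.1).

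Tyrobp read 13.56, 13.45 and 13.55 in knockdown cells, against 13.39, 13.41 and 13.45 in wild-type cells. The knockdown values lay just above the wild-type ones without overlap, and the difference of 0.10 (SE 0.06, interval -0.03 to 0.24) did not pass the test (limma adjusted p = 0.504).

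The third comparison sets LPS-treated knockdown cells against unstimulated wild-type cells. It shares arrays with both others, so its values stand beside theirs as a description of where each gene ended. Of the 10 genes 3 were higher and 3 lower, against 10.9% of all genes called (4.23% higher and 6.64% lower). Treml4 was 16.9-fold higher (log2 difference 4.08, SE 0.39, limma adjusted p = 0.000905), beside 2.29 in LPS-treated wild-type cells. Trem3 was higher by 1.41 and Trem1 by 1.07 (adjusted p = 0.00974 and 0.0154), and Trem1 lost its call without knockdown replicate 3 (adjusted p = 0.0657). The order of Treml4 was knockdown LPS, wild-type LPS and unstimulated, high to low, without overlap between any neighbours.

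Cd300a was arranged differently. Its knockdown LPS values, 11.42, 11.04 and 11.24, overlapped the unstimulated ones, 11.57, 11.13 and 11.55, and the difference was -0.18 (SE 0.17, interval -0.57 to 0.21, limma adjusted p = 0.654). Cd300lf, at -0.06 (interval -0.62 to 0.50), and Tyrobp, at -0.07 (interval -0.20 to 0.07), were also not called.

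Cd300lb was lower by a log2 difference of -2.05 (SE 0.24, limma adjusted p = 0.00201), close to the -2.08 of wild-type cells. Cd300ld, at -1.20 (SE 0.20, adjusted p = 0.00781), and Trem2, at -0.72 (SE 0.09, adjusted p = 0.00261), were both called here. The order of their means was unstimulated, wild-type LPS and knockdown LPS, high to low. For Trem2 no neighbours in that order overlapped, whereas the unstimulated and wild-type LPS values of Cd300ld did. Treml2, at -1.20 (SE 0.43), passed only in the paired fit (limma adjusted p = 0.128, paired 0.00382) and without knockdown replicate 2 (0.0409).

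The signalling genes that act below these receptors were described with a list of 20, of which 18 were measured by a probe set naming a single gene. With LPS in wild-type cells 4 rose and 3 fell, against 3.99% and 6.86% of all genes. The list's median was 0.06, beside 0.04 over all genes. Syk, the kinase docked by the ITAM of DAP12, read 12.68, 12.43 and 12.80 after LPS, against 11.48, 11.99 and 11.56. Its groups were apart, and it rose by 0.96 (SE 0.15, limma adjusted p = 0.00587). Lcp2, the scaffold SLP-76, rose by 0.84 (SE 0.09), and Malt1 and Bcl10, which form a complex with CARD9 that activates NF-kB, rose by 0.86 (SE 0.08) and 0.67 (SE 0.14). Card9, the third part of that complex, fell by 0.73 (SE 0.10), Pik3cd, a phosphoinositide 3-kinase subunit, by 1.04 (SE 0.18), and Btk, a Tec-family kinase, by 0.48 (SE 0.12, adjusted p = 0.0371, paired 0.0534). The complex of CARD9, BCL10 and MALT1 thus had members that moved in opposite directions. In the paired fit 6 rose and 2 fell (5.19% and 9.57% of all genes), since it added Fgr, a Src-family kinase (0.39, adjusted p = 0.0918, paired 0.0311), and Pik3r1, a phosphoinositide 3-kinase subunit (0.34, adjusted p = 0.32, paired 0.041), and left out Btk. The alternative adaptors did not pass the test: Fcer1g differed by -0.03 (SE 0.05) and Hcst, which encodes DAP10, by -0.04 (SE 0.07).

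In the third comparison 4 of the 18 were higher and 3 lower, against 4.23% and 6.64% of all genes. Fgr was among the higher ones (0.50, SE 0.13, limma adjusted p = 0.0406). Lat2, an adaptor also called NTAL, was lower, at -2.09 (SE 0.31, limma adjusted p = 0.00491). Pik3cd and Hcst were the other lower ones, at -1.02 (SE 0.18) and -0.33 (SE 0.07, limma adjusted p = 0.0218). The paired fit called 5 higher and 4 lower, beside 1121 and 1725 of all 19938 genes. It added Bcl10 as higher (0.35, limma adjusted p = 0.171, paired 0.0332) and Plcg2 as lower (-0.24, limma adjusted p = 0.108, paired 0.0484).

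None of the 18 was called between knockdown and wild-type cells after LPS by limma with 1 mean per group, where 0.762% of all genes were. Before adjustment p was under 0.05 for 1 higher and 3 lower, and for 7.32% and 5.79% of all genes in these directions. The paired fit called 1 of the 18, Card9, and 2.75% of all genes. Card9 read 10.99, 10.86 and 11.18 in knockdown cells, against 10.50, 10.52 and 10.61 in wild-type cells after LPS, with no overlap (0.47, SE 0.10, limma adjusted p = 0.0811, paired 0.0287). Hcst differed by -0.29 (SE 0.07, adjusted p = 0.117) and Lat2 by -1.13 (SE 0.31, adjusted p = 0.153). Syk differed by 0.12 (SE 0.15, adjusted p = 0.759).

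**Figure D4:**
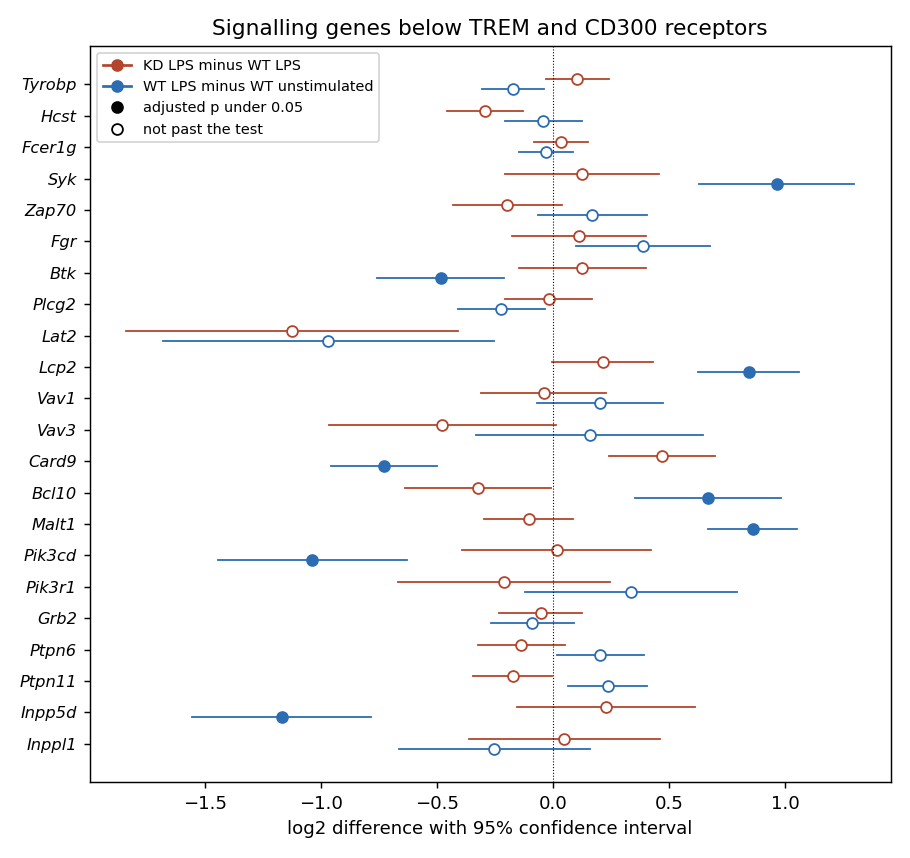
Log2 differences with 95% confidence intervals (x axis) of 18 adaptor and proximal signalling genes and 4 phosphatases, for knockdown LPS minus wild-type LPS (upper point of each pair) and wild-type LPS minus unstimulated (lower point). Filled points passed the test: Syk at 0.96 and Inpp5d at -1.17 with LPS are among them, and no knockdown point is filled.

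Of 4 phosphatases recruited by inhibitory receptors 1 fell with LPS, where 6.86% of all genes fell. Inpp5d, the lipid phosphatase SHIP-1, read 10.57, 11.16 and 10.76 after LPS, against 12.11, 11.75 and 12.14, and fell by 1.17 (SE 0.17, limma adjusted p = 0.00479). The tyrosine phosphatases Ptpn6 (SHP-1), at 0.20, and Ptpn11 (SHP-2), at 0.24, did not pass (adjusted p = 0.156 and 0.0834). None of the 4 was called in the knockdown comparison by limma, and 1 was lower at an unadjusted p under 0.05 (5.79% of all genes).

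Among 10 ligands and sheddases of TREM receptors 2 rose and 2 fell with LPS, against 3.99% and 6.86% of all genes. The metalloproteases that shed TREM proteins differed in direction: Adam17 rose by 0.66 (SE 0.11, limma adjusted p = 0.00974) and Adam10 fell by 0.32 (SE 0.08, adjusted p = 0.0435). Hspa1a, a heat shock protein, rose by 0.79 (adjusted p = 0.0379, paired 0.0557), and Hmgb1, a nuclear protein released by damaged cells, fell by 0.56. The TREM1 ligand Pglyrp1, at 0.58 (SE 0.74), and the TREM2 ligands Apoe, at 0.14, and Clu, at 0.07, did not pass. In the third comparison Lgals3, the lectin galectin-3, was lower by -0.22 (SE 0.05, adjusted p = 0.026). In the knockdown comparison limma called none of the 10, and 1 was higher at an unadjusted p under 0.05 (7.32% of all genes).

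Other receptors that pair with DAP12 had 1 of 8 higher with LPS, the C-type lectin Clec5a (0.56, SE 0.11, limma adjusted p = 0.0151), and 1 lower, Cd200r4 (-0.38, SE 0.09, adjusted p = 0.0272). The paired fit added Pilrb2, an activating receptor, as higher (0.57, adjusted p = 0.0581, paired 0.0334). Paired inhibitory receptors of myeloid cells had 1 of 9 higher, the sialic acid receptor Siglece (1.44, SE 0.26, adjusted p = 0.0122), and 1 lower, Cd200r1, the receptor of CD200 (-0.94, SE 0.13, adjusted p = 0.00387). Of 11 measured genes that depend on TREM2 in lipid-associated macrophages 1 fell, Fabp5, a fatty acid carrier (-0.29, SE 0.08, adjusted p = 0.0482). Over all genes 3.99% rose and 6.86% fell with LPS, so single members of lists this short are no result about the lists. In the knockdown comparison limma called none of these lists' members. Before adjustment, p was under 0.05 for none of the first and second list and for 3 higher and 1 lower members of the third. Over all genes the shares were 7.32% higher and 5.79% lower. The paired fit called Cd9, a tetraspanin, higher (0.46, adjusted p = 0.148, paired 0.0412), and 1.51% of all genes.

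Levels of cell type markers are given beside these differences. All 12 dendritic cell markers had lower means in knockdown than in wild-type cells after LPS, as had 11829 of all 19938 genes. None of the 12 was called by limma. Before adjustment p was under 0.05 for 8 of them (5.79% of all genes, lower), and the paired fit called 7 (1.24% of all genes, lower). Their mean log2 level was 8.74 to 9.72 on knockdown arrays and 9.96 to 10.62 on wild-type LPS arrays. Macrophage markers had 1 of 9 called, Spic, higher, as were 0.401% of all genes. Before adjustment p was under 0.05 for 2 higher and 1 lower, and for 7.32% and 5.79% of all genes. The differences of the 9 macrophage markers were positive in 5 and negative in 4, with a median of 0.09. Their mean level was 10.95 to 11.27 on knockdown arrays and 10.65 to 11.04 on wild-type LPS arrays, and without Spic it was 10.90 to 11.26 on knockdown arrays and 10.90 to 11.24 on wild-type LPS arrays. Neutrophil and granulocyte precursor markers were lower in 11 of 14, with mean levels of 8.10 to 9.75 on knockdown arrays and 9.0 to 10.50 on wild-type LPS arrays. Mast cell and basophil markers were lower in 10 of 10, with mean levels of 6.37 to 6.75 on knockdown arrays and 7.12 to 7.54 on wild-type LPS arrays. No marker of these last lists was called by limma, and before adjustment p was under 0.05 for 4 and 5, all lower. The paired fit called 1 of the neutrophil list and 3 of the mast cell list. With LPS in wild-type cells 9 of 10 mast cell and basophil markers were higher, as were 11899 of all 19938 genes. Of the 10 markers 1, Hdc, which encodes the enzyme that makes histamine, was called (3.23, SE 0.52, limma adjusted p = 0.00758). Kit, the only marker that was lower, differed by -1.03 without overlap (SE 0.35, limma adjusted p = 0.104). In the paired fit Kit was called lower (adjusted p = 0.0236). Of the 10 markers 4 had a mean over the arrays below 6.32, so their differences are those of dim probe sets. The mean level of that list was 7.12 to 7.54 on wild-type LPS arrays and 6.75 to 7.03 on unstimulated arrays. The part of these marker levels in the differences of Treml4, Cd300a, Cd300ld and Trem2 was not tested.

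The genes whose profile over the 9 arrays was most like that of Treml4, after each profile was centred on its mean, were Adgb, Spic, Ch25h and Maff, with root mean square differences of 0.55, 0.56, 0.59 and 0.68. The median over all genes was 1.73, near the SD of Treml4 itself over the arrays, 1.84. It mostly reflects the spread of Treml4 and says little about likeness. Spic, which encodes a transcription factor needed by splenic red pulp macrophages, read 11.29, 11.36 and 11.34 in knockdown cells, against 8.71, 7.65 and 9.41 in wild-type cells after LPS. In Treml4, Spic and Maff wild-type LPS replicate 2 was the lowest of its group, in Ch25h replicate 1 and in Adgb replicate 3. The genes nearest to Treml4 were picked by their profile on the same arrays, so their differences between groups follow in part from that choice. Between knockdown and wild-type cells after LPS, Spic differed by 2.74 (limma adjusted p = 0.0384). Ch25h, at 1.26 (adjusted p = 0.0753, paired 0.0215), Adgb, at 1.13 (0.0729), and Maff, at 0.39 (0.672), did not pass. For Cd300lb the nearest genes were Tifab, Gpr146, Etv5 and Cnr2, with root mean square differences of 0.24, 0.25, 0.29 and 0.30. The median over all genes was 1.03, again near the SD of the gene itself, 1.07.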

How the data were processed

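Expression of 3 groups of 3 arrays was taken from the deposited value table, which holds log2 values per probe set that the authors made with RMA, per the submitters' processing notes (no version is given). The values fit that unit, with array medians of 7.22 to 7.31, and no further normalization was applied. No pair of arrays was identical. The scanner files were not used here, so no detection call was available, and the number of arrays limits the precision.

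Of 35556 probe sets, 21789 named 1 gene, 1621 named several and 12146 were outside the gene table. Symbols were updated through the Entrez identifier in the RefSeq table of GRCm38.p6, which matched 21698. The probe set with the highest mean represented each of 19938 genes. A linear model with 1 mean per group was fitted with limma 3.58.1 in R 4.3.3 to all 9 arrays (6 residual and 2.31 prior degrees of freedom), with two-sided moderated tests. The analysis was tested on simulated data.

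Each group has replicates 1 to 3 in the labels. Cultures of each genotype were independent, per the series description, but no source says whether arrays of different groups share one. Each value minus its group mean was correlated over all genes between arrays of different groups. The correlation was 0.14 to 0.48 in the 9 same-number pairs and -0.41 to 0.25 in the 18 others, so the number was taken to pair the arrays. With group means taken out, positive values in same-number pairs push the others to negative ones, and the ranges overlap. The pairing therefore remains an assumption.

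The members, gene lists and tests were chosen with earlier results of these data known. Named genes were the members, Kdm4d, Il6, Il12b, genes of the pathway lists past the test in a comparison, up to 4 others per list with the smallest p, and the 4 genes nearest in profile to the TREM and the CD300 member with the widest range of group means. Pglyrp1, Apoe, Clu, Syk and Fcer1g, and single cell type markers such as Hdc, Kit, Spic, Csf3r and Dpp4, were also named for their role or value, after their values were seen. Alternatives were the replicate block, quantile normalization, median centring, a filter at the 25th percentile of gene means, other choices of probe set, a trended robust prior, fits to 6 arrays, and each array left out.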

Additional observations from a re-analysis of the deposited data

How the results depend on the processing

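Of 510 values of single genes under an alternative, 482 kept their direction and side of the threshold, 10 lost the call, 10 gained it and 8, all of uncalled differences with 1 array left out, turned. In the comparison of LPS with no stimulation, 3 to 6 members were called with 1 array left out and 7 in the paired fit (replicate block), against 6. Between knockdown and wild-type cells after LPS, against 0, limma called 2 with the replicate block, 1 with median centring, 1 with the filter on dim probe sets, 1 with the trended robust prior, and 0 to 1 with 1 array left out. Cd300a was the member called with centring (adjusted p = 0.0477), the filter (0.043), the robust prior (0.0411) and without unstimulated replicate 2 (0.0422). In the third comparison 5 to 7 were called with 1 array left out. Among the 10 members and the 18 signalling genes, the paired fit changed the calls of Treml2, Btk, Fgr and Pik3r1 with LPS and of Treml4, Cd300a and Card9 with the knockdown, and no other call in these 2 comparisons. The turned differences between knockdown and wild-type cells were those of Trem1 (0.09 without knockdown replicate 1 and 0.12 without wild-type LPS replicate 3), Trem3 (-0.03 without wild-type LPS replicate 2 and -0.068 without knockdown replicate 3) and Cd300lb (-0.03 without wild-type LPS replicate 1, -0.11 without knockdown replicate 1 and -0.12 without knockdown replicate 3). With 1 array left out their ranges were -0.17 to 0.12, -0.068 to 0.41 and -0.12 to 0.33. Cd300lf turned in the third comparison, at 0.16 without unstimulated replicate 2 (range -0.18 to 0.16). The cause was not tested. Over all genes, 2164 were called with LPS, and 891 to 3424 with 1 array left out. In the knockdown comparison 152 were called, against 548 with the replicate block, 33 in a fit to 6 arrays and 18 to 383 with 1 array left out. In the third, 2166 were called, and 1054 to 2602 with 1 array left out. Signal over background could not be judged without detection calls, and the 10 genes all lay above the median of all gene means, 7.61.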

Other observations

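A pair of probe sets each name Cd300ld3, Cd300ld4 and Cd300ld5, relatives of Cd300ld in the same cluster on chromosome 11, and were left out because they name several genes. The first read 9.23, 8.60 and 8.96 in knockdown cells, 9.10, 9.23 and 9.61 in wild-type cells after LPS, and 9.64, 9.31 and 10.11 in unstimulated cells. The second averaged 8.77, 9.15 and 9.54 in the same order of groups. Both had the order of means seen for Cd300ld, and cross-hybridization between these relatives was not tested.

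Other TREM and CD300 genes, chosen after the members' values were seen, were mostly not called with LPS in wild-type cells. In that comparison 10.9% of all genes were called. Cd300c2, an activating CD300 receptor, fell by 0.42 (SE 0.07, limma adjusted p = 0.00901), whereas Cd300c (-0.14), Cd300e (0.52, SE 0.44), Cd300lg (-0.20) and Treml1 (-0.02) did not pass. In the TREM cluster B430306N03Rik (-0.40, SE 0.27) did not pass either, and 9830107B12Rik (-0.66, SE 0.41) passed only in the paired fit (limma adjusted p = 0.344, paired 0.0154). The TREM-cluster gene A530064D06Rik averaged 7.20 in knockdown cells, against 8.79 in wild-type cells after LPS, and the difference of -1.59 (SE 0.52) did not pass the test (limma adjusted p = 0.235, paired 0.0929). Cd300c was higher in knockdown than in wild-type cells after LPS, without overlap (0.25, SE 0.09), and did not pass either (limma adjusted p = 0.275, paired 0.185). Between LPS-treated knockdown and unstimulated wild-type cells, Cd300c2 was called lower (-0.38, SE 0.07, limma adjusted p = 0.0126), as were 6.64% of all genes. A530064D06Rik (-1.92), 9830107B12Rik (-1.01), B430306N03Rik (-0.79) and Cd300lg (-0.60) were called only in the paired fit (paired adjusted p = 0.0205, 0.0037, 0.0495 and 0.0254). That fit called 1725 of all 19938 genes lower in this comparison.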
